A study of Homo sapiens with 15 samples.

Results

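Immediate early and growth factor response genes are transcribed within minutes of a growth signal or a stress, before any new protein is made. Here 10 of them were followed in HepG2 cells, namely FOS, JUN, JUNB, JUND, EGR1, KLF6, MYC, IER2, DUSP1 and SGK1. They were chosen by name, as the rows of the deposited gene tables that carry these symbols, out of 57773 genes listed. Of the 10 genes, 9 passed the filter on low counts and were tested among 12567 genes. JUNB did not pass.

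HepG2 is a human hepatocellular carcinoma line. RNA was taken after 72 h with tris(2-chloroisopropyl) phosphate (TCIPP) at 25 or 2.5 µM, with 250 or 25 µM of tris(2-chloroethyl) phosphate (TCEP), or with 0.1% dimethyl sulfoxide (DMSO) alone, in 3 libraries each, 15 in all. These flame retardants are chlorinated phosphate esters that differ in structure by a methyl branch, present on every chlorinated arm of TCIPP and absent from TCEP. The cells were 1 line in 10% serum, and each replicate was a culture of its own, per the labels' protocols. The only concentration at which both compounds were used was 25 µM.

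In resting cells most of these genes are kept low. Growth factors and stress act through the ERK, JNK and p38 kinase cascades on factors already bound at the promoter, such as serum response factor with its ternary complex partners and CREB, and transcription starts at once. The first products include transcription factors (the AP-1 proteins FOS, JUN, JUNB and JUND, then EGR1, KLF6 and MYC), while others end the signal, such as DUSP1, which removes phosphate from the kinases. A stimulus usually raises these RNAs for only a short time, since most are unstable and are cleared soon after the signal ends.

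Total exon reads ran from 5.35 to 26.8 M (megareads) per library with a median of 8.89 M, so that 3 reads made 0.112 to 0.560 CPM (exon reads of a gene per megaread of all exon reads). Floors of this kind cover counting error only. All 16 hepatocyte markers looked up had reads, with albumin at 15935 to 21741 CPM as group means, and their summed level was 49011 to 57189 CPM per library with TCIPP, 48855 to 54081 CPM with TCEP and 52350 to 60266 CPM with DMSO. Of 9 fibroblast and stellate markers, 5 had reads and COL1A2, DCN, LUM and THY1 were at 0. The summed level of these markers was 49.5 to 67.1 CPM per library. PDGFRB, at up to 24.3 CPM, and ACTA2, at up to 23.7 CPM as group means, were the highest. Of 6 endothelial markers matched, CLEC4G was at 0 and the summed level was at most 2.65 CPM. Of 9 immune markers MS4A1 and TYROBP were at 0, while nearly all the signal was LYZ, at 4181 to 4955 CPM as group means. The line carried the liver markers its label implies.

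The promoters of EGR1, DUSP1 and FOS are shown because these genes hold letters that the early response pathway is known to use, and because EGR1, DUSP1 and FOS spread widely between libraries, with the highest 2.63, 1.95 and 2.42 times the lowest. Each is the 250 bases before the transcription start in RefSeq (GRCh38.p14, a different build from the hg19 gene positions given elsewhere), 5′ to 3′ on the gene's own strand. Capitals mark the CArG box, which serum response factor binds, TGACG on either strand, the core of the CREB site TGACGTCA, and TATAAA on either strand.
EGR1 promoter (chr5:138465229-138465478, plus strand): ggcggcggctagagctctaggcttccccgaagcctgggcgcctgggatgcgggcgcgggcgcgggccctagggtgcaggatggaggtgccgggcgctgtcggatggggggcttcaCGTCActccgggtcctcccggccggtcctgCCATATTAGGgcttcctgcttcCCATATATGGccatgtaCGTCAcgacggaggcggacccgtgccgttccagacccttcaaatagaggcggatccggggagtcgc
DUSP1 promoter (chr5:172771196-172771445, minus strand): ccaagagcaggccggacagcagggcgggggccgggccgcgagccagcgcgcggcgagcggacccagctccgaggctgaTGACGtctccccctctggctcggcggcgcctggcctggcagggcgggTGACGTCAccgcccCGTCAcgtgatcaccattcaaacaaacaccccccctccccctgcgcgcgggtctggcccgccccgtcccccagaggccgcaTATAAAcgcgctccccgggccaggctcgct
FOS promoter (chr14:75278578-75278827, plus strand): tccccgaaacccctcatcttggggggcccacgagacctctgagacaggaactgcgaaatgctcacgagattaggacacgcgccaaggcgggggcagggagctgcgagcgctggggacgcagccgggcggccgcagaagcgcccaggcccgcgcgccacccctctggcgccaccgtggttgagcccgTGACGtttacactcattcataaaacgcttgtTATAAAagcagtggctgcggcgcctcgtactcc
The EGR1 window held a CArG box that begins 105 bases and another that begins 83 bases before the start, as well as TGACG at 135 and 66 bases. A CArG box was present in 1.16% of the 35116 promoters in the RefSeq table, and among the members matched it was found in this window for EGR1 alone. The DUSP1 window held the full TGACGTCA at 125 bases, TGACG at 172, 125, 122 and 111 bases, CACGTG at 108 bases and TATAAA at 30 bases before the start. The FOS window held TGACG at 64 and TATAAA at 33 bases. On both strands, TGACG was found in 21.2% of all promoters, TGACGTCA, which contains it, in 1.65%, CACGTG in 6.34% and TATAAA in 10.7%. TGANTCA (N for any base), a pattern that covers the usual AP-1 site, was in 6.57% of all promoters and in none of the members matched. Promoters were matched for 9 of the 10 genes. JUND also held TGACGTCA, JUN, JUNB and IER2 held TGACG, and KLF6 held CACGTG. Such a match is a description of letters and not a bound site.

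After 72 h, 1 of the 9 genes tested differed from DMSO past the test, in 1 of the 4 treatments, where 0.0955% of all genes did. DUSP1 rose with TCIPP at 2.5 µM, to 117 ± 4.39 CPM, against 71.0 ± 9.33 CPM with DMSO (SD, n = 3 each). SGK1 lay lower in all 12 treated libraries than in any DMSO library, as 0.374% of all genes did, EGR1 had its lowest level with TCEP at 25 µM, and FOS was higher with TCIPP than with TCEP at the concentration they share, all without passing the main test. That test left out the pairing of treated cultures by replicate number. With the number as a block, FOS had an edgeR adjusted p of 0.00978 between the compounds, where 8.75% of all genes were called. For MYC, KLF6, IER2, JUN and JUND the highest of the 15 libraries was 1.15 to 1.55 times the lowest. In these bulk samples, fewer cells with a transcript and less of it per cell cannot be told apart.

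**Figure D1:**
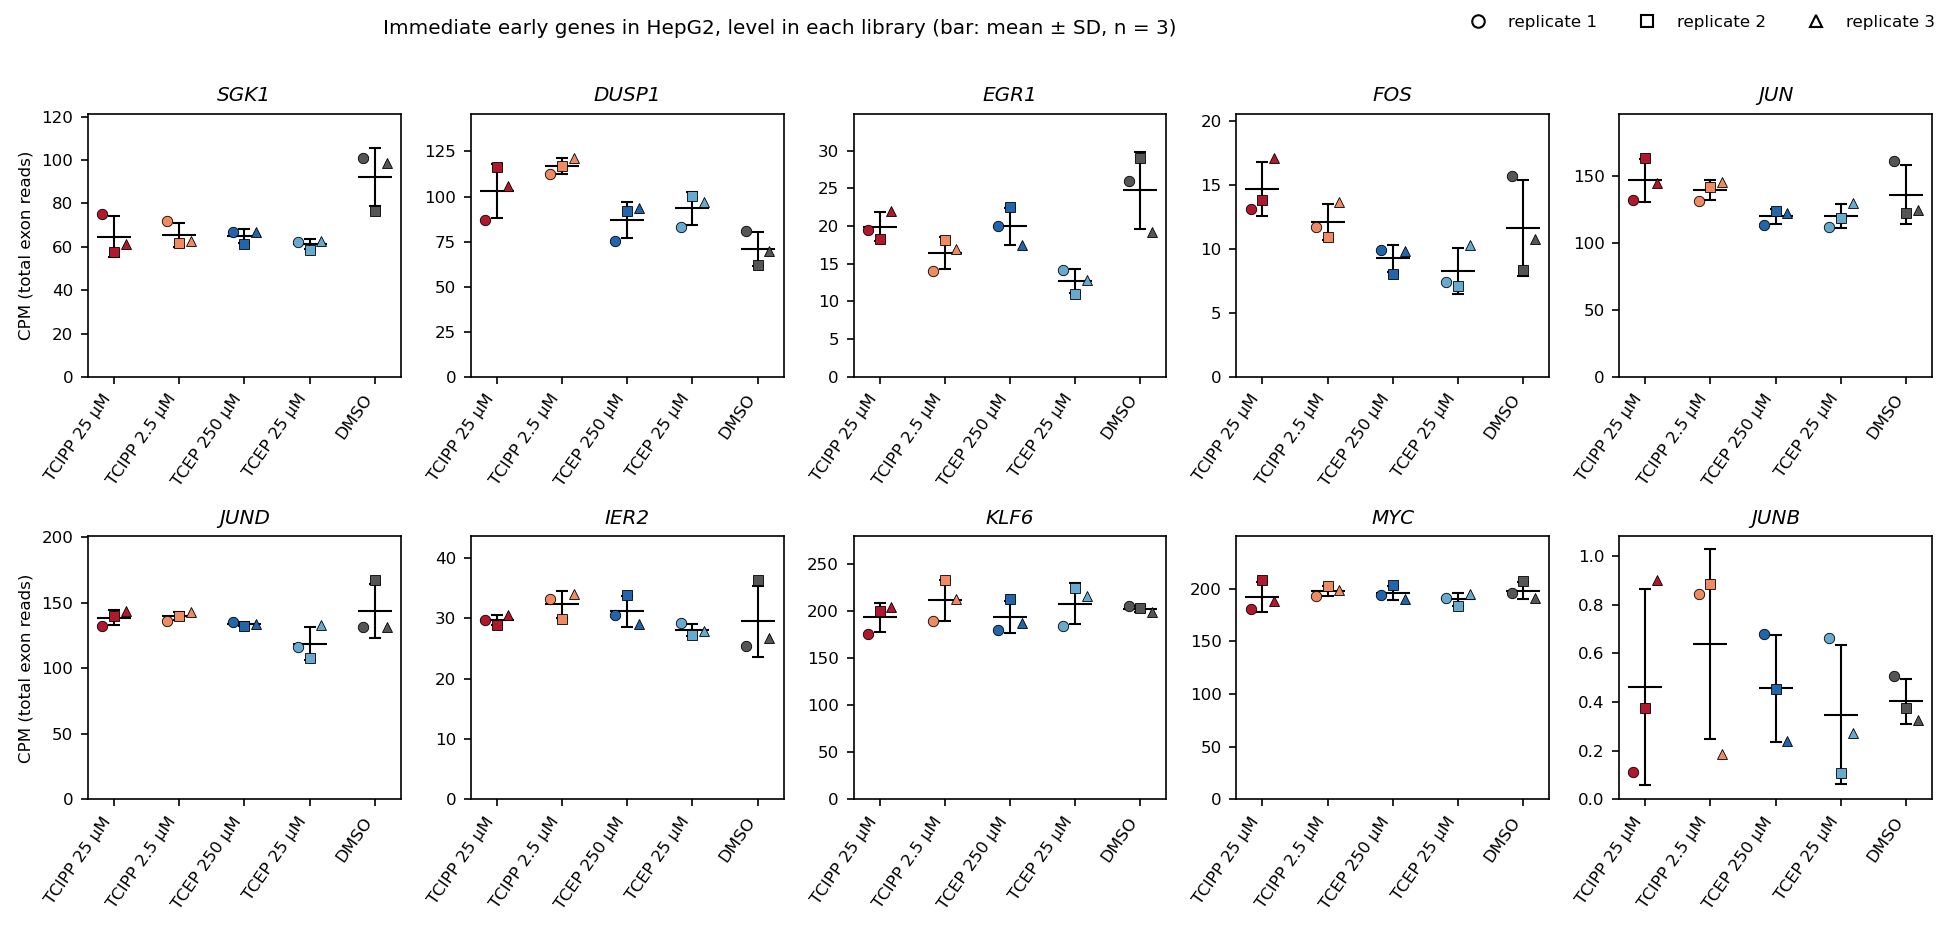
Level of each of the 10 genes in CPM on linear axes from 0, 1 panel per gene, with a point per library and a bar at the mean ± SD of 3 libraries, for TCIPP at 25 and 2.5 µM, TCEP at 250 and 25 µM and DMSO. The 12 treated libraries of SGK1 lie between 57.7 and 75.3 CPM, below the lowest DMSO library at 76.6 CPM, while MYC stays between 181 and 208 CPM throughout.

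The genes ran over a wide span of levels. By RPKM, which divides reads by exon length so that genes can be compared, JUND led in DMSO cells at 69.9 ± 10.0 (SD, n = 3), followed by MYC at 60.3 ± 2.46 RPKM. JUN stood at 37.3 ± 5.95, DUSP1 at 32.0 ± 4.16 and KLF6 at 30.0 ± 0.420 RPKM, and their DMSO libraries overlapped from each gene to the next. IER2 at 8.74 ± 1.76, SGK1 at 8.40 ± 1.23 and EGR1 at 7.18 ± 1.46 RPKM formed a lower set that also overlapped in this order. FOS followed at 3.26 ± 1.05 RPKM, below every EGR1 library. The remaining AP-1 gene, JUNB, was listed at 0.202 ± 0.0462 RPKM. This order depends on the exon lengths listed, such as 9992 bases for SGK1 and 2019 for DUSP1. By CPM the DMSO mean of SGK1 was above that of DUSP1, 92.1 against 71.0. Of the exon reads of DUSP1 and IER2, only 21.4% and 59.6% were unique.

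FOS encodes the partner that JUN proteins need for the most stable AP-1 dimer and is the classic serum-induced gene (ENSG00000170345, hg19 chr14:75745477-75748933). With TCIPP it had 13.1, 13.8 and 17.1 CPM at 25 µM and 11.7, 10.9 and 13.7 CPM at 2.5 µM in replicates 1, 2 and 3. TCEP gave 9.92, 7.99 and 9.82 CPM at 250 µM and 7.39, 7.07 and 10.3 CPM at 25 µM, and DMSO gave 15.7, 8.36 and 10.7 CPM. All 3 libraries with TCIPP at 25 µM were above all 3 with TCEP at 25 µM, while the DMSO libraries spanned both. FOS rested on 53 to 366 reads per library. At the matched 25 µM, the log2 fold change of TCIPP over TCEP was 0.80 ± 0.20 (SE; 95% interval 0.38 to 1.22), with adjusted p = 0.0833 by edgeR's quasi-likelihood test with Benjamini-Hochberg adjustment over all genes. With the replicate number as a block, which pairs the treated cultures, the adjusted p of edgeR was 0.00978, in a fit that called 8.75% of all genes in this comparison. Over all alternatives it ran from 0.000254 to 0.359. Against DMSO the log2 fold change of FOS with TCEP at 25 µM was -0.45 ± 0.20 (edgeR adjusted p = 0.290; 0.132 to 0.709 over the alternatives that gave one) and the libraries overlapped. Without DMSO replicate 1 that fold change was -0.21. In order of mean level the groups ran TCIPP 25 µM, TCIPP 2.5 µM, DMSO, TCEP 250 µM and TCEP 25 µM, and each overlapped the next.

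JUN, the other main AP-1 subunit and a target of the JNK kinases (ENSG00000177606, hg19 chr1:59246465-59249785), followed the same order of groups down to DMSO. It had 132, 164 and 145 CPM with TCIPP at 25 µM, 132, 142 and 145 at 2.5 µM, 114, 124 and 122 with TCEP at 250 µM, 112, 119 and 129.8 at 25 µM and 162, 122 and 125 CPM with DMSO. Replicate 1 was the lowest of its group in all 4 treatments and the highest in DMSO. TCIPP at 25 µM lay above TCEP at 25 µM in every library, by 0.28 ± 0.10 on the log2 scale (edgeR adjusted p = 0.180).

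JUND, the AP-1 subunit that resting cells already hold (ENSG00000130522, hg19 chr19:18390563-18392432), is counted in reads that were all unique to it. Its level was 132, 139.7 and 143 CPM with TCIPP at 25 µM and 136, 140.0 and 143 CPM at 2.5 µM. With TCEP it was 135, 132 and 134 CPM at 250 µM and 117, 108 and 133 CPM at 25 µM, against 132, 167 and 131 CPM with DMSO. The 9 libraries of the other 3 treatments lay between 132.0 and 143 CPM, and only TCEP at 25 µM and DMSO had libraries outside that range. The log2 fold change was -0.26 ± 0.085 for TCEP at 25 µM over DMSO (edgeR adjusted p = 0.180) and 0.21 ± 0.086 for TCIPP over TCEP at 25 µM (edgeR adjusted p = 0.217), with overlap between the libraries in both. Without DMSO replicate 2, the highest DMSO library, the fold change over DMSO was -0.14.

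JUNB could not be measured from these tables. The gene (ENSG00000171223, hg19 chr19:12902310-12904124) had 67 exon reads over all 15 libraries, between 1 and 8 in each, and 0 of them were unique. The level was 0.112, 0.374 and 0.900 CPM with TCIPP at 25 µM, 0.843, 0.885 and 0.187 CPM at 2.5 µM, 0.679, 0.453 and 0.238 CPM with TCEP at 250 µM, 0.664, 0.111 and 0.272 CPM at 25 µM and 0.506, 0.374 and 0.327 CPM with DMSO. JUNB lies within the span of HOOK2 (ENSG00000095066, hg19 chr19:12873817-12983554), a gene on the opposite strand by the annotation of this build, and HOOK2 was given 3102 intron reads, of which 249 were unique. The non-unique intron reads of HOOK2 came to 16.7 ± 2.52 CPM with TCIPP at 25 µM, 15.9 ± 2.35 at 2.5 µM, 15.7 ± 1.51 with TCEP at 250 µM, 15.4 ± 2.56 at 25 µM and 17.9 ± 1.44 CPM with DMSO. How many of them belong to JUNB was not tested, so these counts are not taken as the level of JUNB.

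EGR1, a zinc finger factor that serum response factor switches on (ENSG00000120738, hg19 chr5:137801179-137805004), had 19.4, 18.3 and 22.0 CPM with TCIPP at 25 µM and 14.1, 18.1 and 17.0 CPM at 2.5 µM. With TCEP it had 20.0, 22.5 and 17.5 CPM at 250 µM and 14.2, 11.1 and 12.9 CPM at 25 µM, and with DMSO 25.9, 29.1 and 19.2 CPM. The lower concentration of each compound lay below DMSO in every library, while both higher concentrations overlapped DMSO. The mean with TCEP at 25 µM was 0.53 of DMSO by the fit, a log2 fold change of -0.92 ± 0.15 (95% interval -1.24 to -0.60; edgeR adjusted p = 0.0529). With TCIPP at 2.5 µM it was -0.55 ± 0.15 (edgeR adjusted p = 0.110), and with TCEP at 250 µM -0.31 ± 0.15 (edgeR adjusted p = 0.955). The last of these was -0.19 without DMSO replicate 2, -0.21 without TCEP 250 µM replicate 3 and -0.50 without DMSO replicate 3. The adjusted p for TCEP at 25 µM was 0.0497 without DMSO replicate 2 and 0.00453 without DMSO replicate 3, and ran from 1.25e-08 to 0.390 over the alternatives that gave one, while DESeq2 gave EGR1 none.

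Within each compound EGR1 was higher at the higher concentration. TCEP at 250 µM over 25 µM gave 0.60 ± 0.15 on the log2 scale (edgeR adjusted p = 0.521), and TCIPP at 25 µM over 2.5 µM gave 0.27 (unadjusted p = 0.0943), neither with overlap. Averaged over both compounds the higher concentrations exceeded the lower by 0.44 ± 0.11 (edgeR adjusted p = 0.0576; 0.0158 with the replicate number as a block; 0.0464 without TCIPP 25 µM replicate 2; 0.000586 to 0.173 over all alternatives). The background of that comparison was 1.09% of all genes called, or 8.78% with the block. The step of TCIPP minus the step of TCEP was -0.33 (95% interval -0.79 to 0.13, edgeR adjusted p = 1.00), so the test did not separate the steps, which also span different concentrations. At the matched 25 µM, TCIPP exceeded TCEP by 0.64 ± 0.16 (95% interval 0.31 to 0.97; edgeR adjusted p = 0.0833, or 0.0164 with the block; 0.000737 to 0.359 over all alternatives), with every TCIPP library higher.

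Some features of the libraries moved with EGR1. The share of intron reads among gene reads was 8.998 ± 0.496% with TCIPP at 25 µM, 8.10 ± 0.490% at 2.5 µM, 8.50 ± 0.228% with TCEP at 250 µM, 8.23 ± 0.306% at 25 µM and 8.90 ± 0.211% with DMSO. The share of mitochondrial genes was 7.03 ± 0.293%, 6.04 ± 0.344%, 6.60 ± 0.163%, 6.15 ± 0.341% and 6.997 ± 0.709% in the groups as just named. The means of both shares were lower at the lower concentrations, as EGR1 was, and their part in the EGR1 values was not tested. FOS did not follow that order, since TCIPP at 2.5 µM had the lowest mean of both shares and the second highest mean of FOS.

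KLF6, a zinc finger factor of the Kruppel-like family (ENSG00000067082, hg19 chr10:3818188-3827473), reached the highest CPM of the 10 genes in a single library, 233 CPM, while with TCEP at 250 µM the mean of MYC was higher, 196 CPM against 194 CPM for KLF6. It had 176, 200.2 and 204 CPM with TCIPP at 25 µM, 189, 233 and 213 at 2.5 µM, 181, 213 and 187 with TCEP at 250 µM, 184, 225 and 216 at 25 µM and 205, 203 and 199 CPM with DMSO. Every group overlapped the next, and no comparison reached an unadjusted p of 0.05. In each of the 4 treatments replicate 1 was the lowest, as it was for JUN and DUSP1.

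MYC, which drives ribosome production and growth in proliferating cells (ENSG00000136997, chromosome 8), varied the least of the 10 genes. Its level was 181, 208 and 188 CPM with TCIPP at 25 µM, 193, 203 and 198 at 2.5 µM, 194, 203 and 191 with TCEP at 250 µM, 191, 184 and 195 at 25 µM and 196, 207 and 191 CPM with DMSO. The highest library was 1.15 times the lowest. The 95% intervals of the log2 fold changes over DMSO reached 0.14 to either side of the estimate, such as -0.19 to 0.082 for TCEP at 25 µM over DMSO and -0.18 to 0.090 for TCIPP at 25 µM over DMSO.

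IER2, a small nuclear protein induced early by growth factors (ENSG00000160888, hg19 chr19:13261229-13265722), had 29.7, 29.0 and 30.5 CPM with TCIPP at 25 µM and 33.2, 29.8 and 34.0 CPM at 2.5 µM. TCEP gave 30.6, 33.9 and 29.0 CPM at 250 µM and 29.2, 27.2 and 27.8 CPM at 25 µM, against 25.4, 36.3 and 26.7 CPM with DMSO. DMSO replicate 2 was the highest library of all and DMSO replicate 1 the lowest, so the treated groups lay inside the DMSO range. Of the exon reads of IER2, 59.6% were unique, and the gene overlaps CTC-250I14.6, so its level is less certain than that of FOS, JUN or EGR1.

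DUSP1, the phosphatase that switches off ERK, JNK and p38 and so closes the feedback loop (ENSG00000120129, hg19 chr5:172195093-172198198), had 87.0, 116 and 106 CPM with TCIPP at 25 µM and 113, 117 and 122 CPM at 2.5 µM. With TCEP it had 75.5, 91.7 and 93.6 CPM at 250 µM and 83.1, 100.3 and 97.1 CPM at 25 µM, and with DMSO 80.8, 62.2 and 69.9 CPM. Of the 12 treated libraries, only TCEP 250 µM replicate 1 lay within the DMSO range by total exon reads. The mean was higher than DMSO in all 4 treatments and ran in the order TCIPP 2.5 µM, TCIPP 25 µM, TCEP 25 µM, TCEP 250 µM and DMSO, each overlapping the next. The log2 fold change over DMSO was 0.73 ± 0.12 with TCIPP at 2.5 µM (95% interval 0.48 to 0.97; edgeR adjusted p = 0.0312), a 1.66-fold rise and the only call among the 9 genes. It was 0.53 ± 0.12 with TCIPP at 25 µM (edgeR adjusted p = 0.173), 0.28 ± 0.12 with TCEP at 250 µM (0.949) and 0.40 ± 0.12 with TCEP at 25 µM (0.145). The call at 2.5 µM was lost without DMSO replicate 1 (edgeR adjusted p = 0.0688), DMSO replicate 3 (0.188), TCIPP 2.5 µM replicate 2 (0.235) or TCIPP 2.5 µM replicate 3 (0.0936), and with all reads of the gene, introns included, adjusted p was 0.0604. Averaged over the 4 treatments the log2 difference from DMSO was 0.49 ± 0.10 (edgeR adjusted p = 0.0771, and 0.0295 without TCIPP 25 µM replicate 1; 6.09e-07 to 0.440 over all alternatives).

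Only 21.4% of the DUSP1 exon reads were unique, between 17.2% and 26.1% per library. On those reads DMSO had 21.1, 13.7 and 16.4 CPM. All libraries with TCEP lay within that range, as did TCIPP 25 µM replicates 1 and 3, at 20.4 and 18.2 CPM. Only TCIPP at 2.5 µM did not overlap DMSO on unique reads, with 25.3, 28.3 and 23.7 CPM. The counts of genes not overlapping, given below, use total exon reads. The gene lies inside RP11-779O18.3 (ENSG00000253736, hg19 chr5:172189983-172204777), an RNA gene on the opposite strand, to which the tables give 2097 intron reads, 84 of them unique. Those intron reads stood at 10.5 ± 2.23 CPM with TCIPP at 25 µM, 11.4 ± 4.05 at 2.5 µM, 14.0 ± 3.43 with TCEP at 250 µM, 11.4 ± 3.95 at 25 µM and 14.9 ± 2.24 CPM with DMSO. Their mean was highest in DMSO, where that of DUSP1 was lowest. With both added up, the locus had 113 ± 12.8 CPM with TCIPP at 25 µM, 128 ± 3.33 at 2.5 µM, 101 ± 8.41 with TCEP at 250 µM, 105 ± 12.2 at 25 µM and 85.9 ± 11.6 CPM with DMSO. On that sum the log2 fold change with TCIPP at 2.5 µM was 0.58 (edgeR adjusted p = 0.0499), and on the unique exon reads alone it was also 0.58 (edgeR adjusted p = 0.0458), with 1.02e-10 to 0.235 as the range over all alternatives. On unique reads the log2 fold change over DMSO was 0.27 with TCIPP at 25 µM, 0.12 with TCEP at 250 µM, 0.24 with TCEP at 25 µM and 0.30 averaged over the 4 treatments (edgeR adjusted p = 0.290 for the average).

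**Figure D2:**
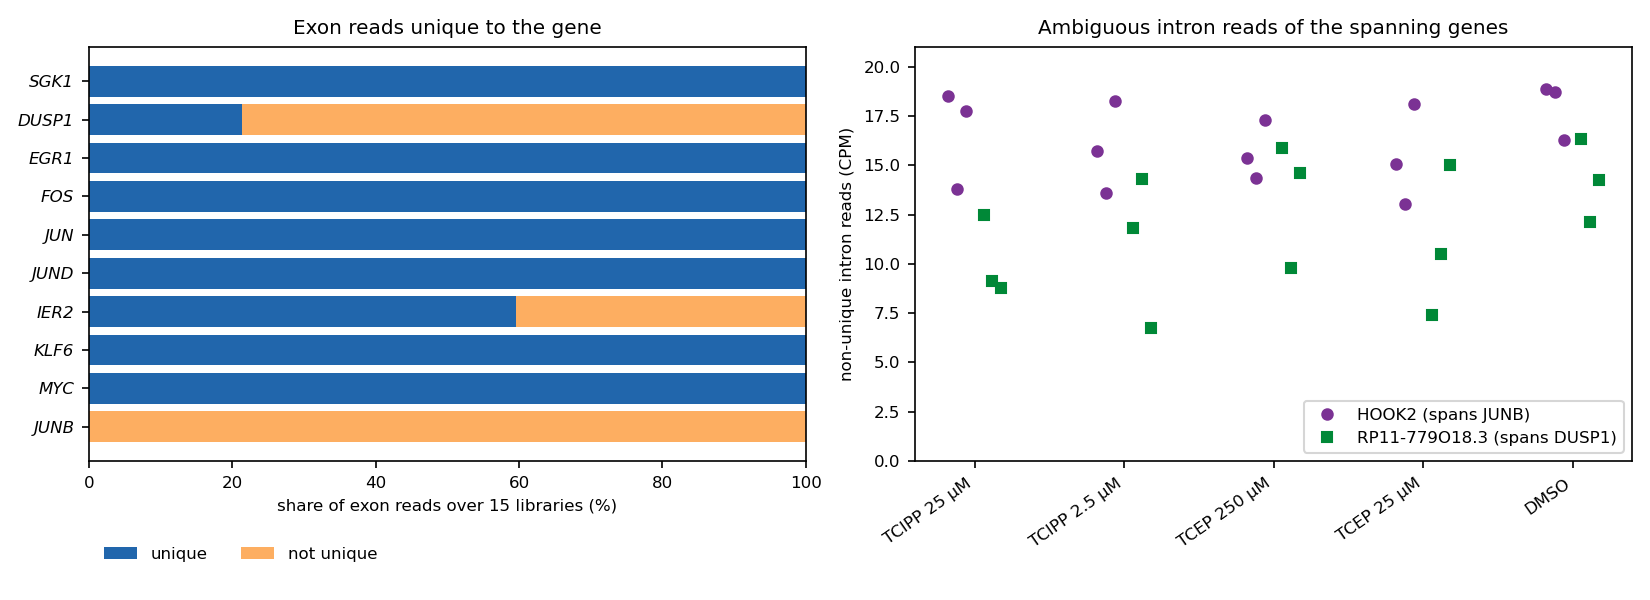
Left, share of each gene's exon reads over 15 libraries that were unique (%). Right, non-unique intron reads (CPM, a point per library) of HOOK2, which spans JUNB, and of RP11-779O18.3, which spans DUSP1, in the 5 groups. JUNB has 0% unique reads, DUSP1 21.4% and IER2 59.6%, and the other genes 100%.

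SGK1, a kinase of cell survival and ion transport that glucocorticoids, serum and osmotic stress induce (ENSG00000118515, hg19 chr6:134490384-134639250), had 75.3, 57.7 and 61.1 CPM with TCIPP at 25 µM and 72.0, 61.8 and 62.5 CPM at 2.5 µM. TCEP gave 66.8, 61.1 and 66.9 CPM at 250 µM and 62.3, 58.6 and 62.7 CPM at 25 µM, and DMSO 101, 76.6 and 98.8 CPM. All 12 treated libraries lay below all 3 DMSO libraries, and replicate 2 was the lowest of each of the 5 groups. All of its reads were unique. The log2 fold change over DMSO was -0.51 ± 0.11 with TCIPP at 25 µM (edgeR adjusted p = 0.167), -0.50 ± 0.11 at 2.5 µM (0.0605), -0.52 ± 0.11 with TCEP at 250 µM (0.273) and -0.59 ± 0.11 at 25 µM (0.112). The 4 comparisons share the same DMSO libraries, so they are not 4 separate observations. Averaged over the treatments the log2 difference was -0.53 ± 0.084 (95% interval -0.71 to -0.35; edgeR adjusted p = 0.0607), about 0.69 of DMSO. Of all genes tested, 0.374% lay below DMSO in all 12 treated libraries and 0.82% lay apart in either direction.

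DMSO replicate 2 was the SGK1 library nearest to the treated ones. Without it the edgeR adjusted p of SGK1 was 0.0421 with TCIPP at 25 µM, 0.00815 at 2.5 µM, 0.0630 with TCEP at 250 µM, 0.0104 at 25 µM and 0.00741 over all treatments. Without TCIPP 2.5 µM replicate 1 it was 0.0425 for TCIPP at 2.5 µM, and over all treatments it was 0.0129 without TCIPP 25 µM replicate 1 and 0.0492 without TCEP 250 µM replicate 1. The range over all alternatives was 0.000322 to 0.757 for TCIPP at 25 µM, 4.75e-05 to 0.356 at 2.5 µM, 0.000220 to 0.939 for TCEP at 250 µM, 8.28e-07 to 0.573 at 25 µM and 3.46e-09 to 0.462 over all treatments. Between treatments the SGK1 means lay between 61.2 and 65.4 CPM. The 95% interval of the log2 difference was -0.25 to 0.23 between the concentrations of TCIPP, -0.17 to 0.30 between those of TCEP and -0.16 to 0.31 for TCIPP over TCEP at 25 µM, each of which includes 0.

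**Figure D3:**
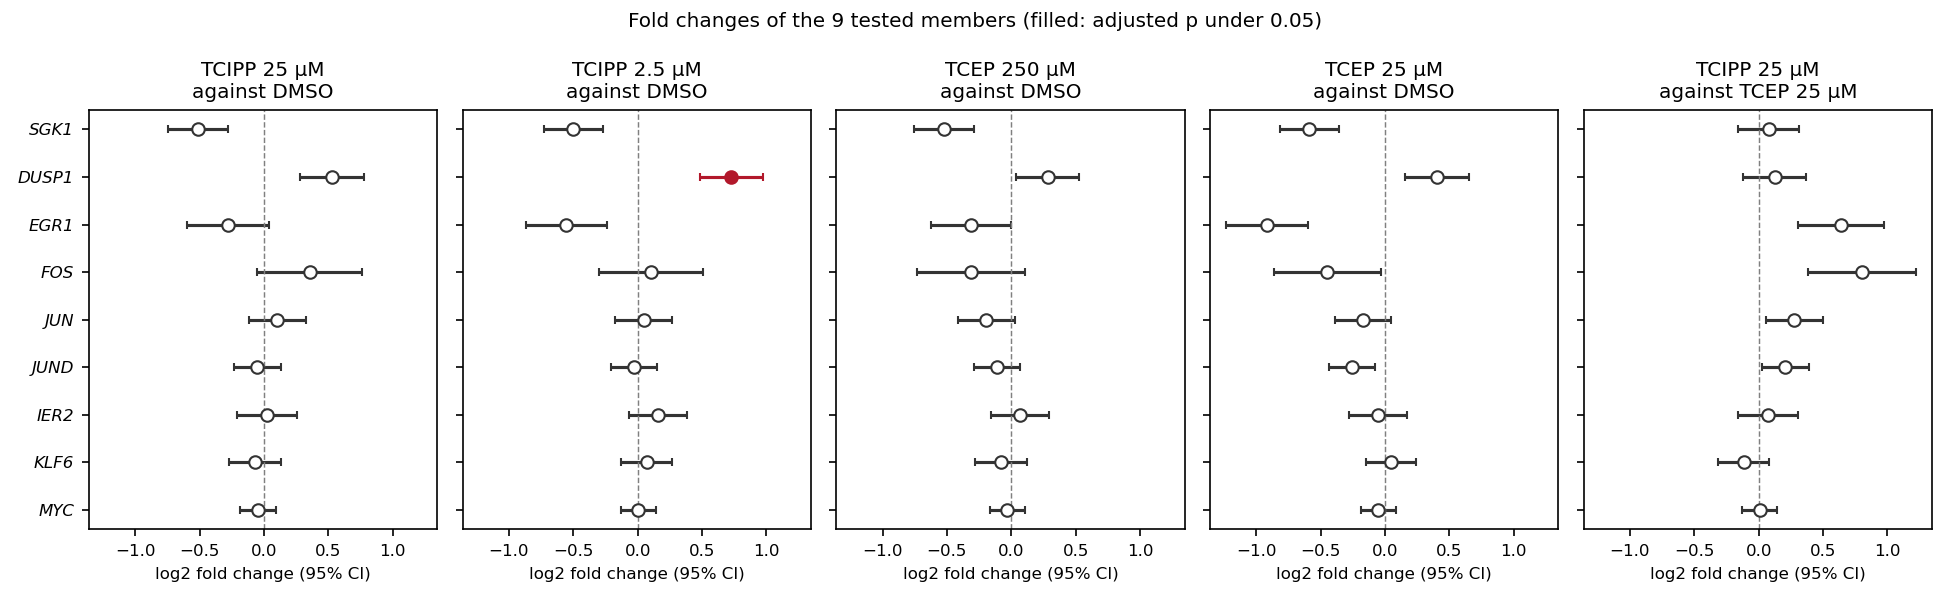
Log2 fold change of the 9 genes tested, with 95% intervals of edgeR's fit. TCIPP at 25 and 2.5 µM and TCEP at 250 and 25 µM are shown over DMSO. The last panel shows TCIPP over TCEP at 25 µM. Over DMSO the SGK1 estimates lie between -0.59 and -0.50 and the DUSP1 estimates between 0.28 and 0.73. EGR1 reaches -0.92 with TCEP at 25 µM over DMSO.

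Counted over the 9 genes tested, TCIPP at 25 µM gave 0 calls against DMSO by edgeR, where 0.00796% of all genes were called. At an unadjusted p under 0.05, DUSP1 was higher and SGK1 lower, against 6.36% of all genes, and the same genes were those that did not overlap DMSO, against 9.2% of all genes. DESeq2 called 2 (DUSP1 and SGK1), among 0.392% of the genes to which it gave an adjusted p, and limma-voom called 0. TCIPP at 2.5 µM gave 1 call, against 0.0955% of all genes. DUSP1 was higher and EGR1 and SGK1 were lower at an unadjusted p under 0.05, against 13.9% of all genes, and the same 3 did not overlap DMSO, against 16.8%. DESeq2 called those 3, with 2.09% of all genes to which it gave an adjusted p, and limma-voom called DUSP1 and SGK1, with 0.828% of all genes.

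TCEP at 250 µM gave 0 calls, with 0% of all genes called. DUSP1 was higher and EGR1 and SGK1 lower at an unadjusted p under 0.05 (5.2% of all genes), and SGK1 alone did not overlap DMSO (11.2% of all genes). DESeq2 called SGK1 (0.421% of genes) but gave EGR1, FOS and IER2 no adjusted p, and limma-voom called 0 of the 9. TCEP at 25 µM also gave 0 calls (0% of all genes). DUSP1 was higher and FOS, JUND, EGR1 and SGK1 were lower at an unadjusted p under 0.05 (15.2% of all genes), DUSP1, EGR1 and SGK1 did not overlap DMSO (22.6%), while limma-voom called 0. DESeq2 called DUSP1 and SGK1 (2.7% of genes). It gave EGR1 and FOS a fold change but no adjusted p, so neither could be called by it here. Averaged over all treatments 0 of 9 were called (0% of all genes), with DUSP1 higher and EGR1 and SGK1 lower at an unadjusted p under 0.05 (10.7% of all genes). DESeq2 called those 3 (1.01% of genes), with no adjusted p for FOS, and limma-voom called 0. In the test of any difference among the 5 groups edgeR called 0 of 9 (0.0955% of all genes), with unadjusted p under 0.05 for DUSP1, EGR1, SGK1, FOS and JUN (13.7% of all genes) and adjusted p of 0.0702 for DUSP1, 0.0764 for EGR1 and 0.0764 for SGK1. DESeq2 called DUSP1, EGR1, FOS and SGK1 in it (3.6% of genes), and limma-voom 0.

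At the matched 25 µM, 1 pair of compounds could be compared, and edgeR called 0 of 9 genes (0.0398% of all genes). FOS, EGR1, JUN and JUND were higher with TCIPP at an unadjusted p under 0.05, against 9.19% of all genes higher at that level, and FOS, EGR1 and JUN did not overlap, against 11%. DESeq2 called FOS and EGR1 (3.46% of genes), and limma-voom 0. With the replicate block, which keeps the pairing of the treated cultures, edgeR called FOS and EGR1 too (8.75% of all genes). For the other 5 genes the 95% interval of TCIPP over TCEP was -0.32 to 0.082 for KLF6, -0.13 to 0.14 for MYC, -0.16 to 0.31 for IER2, -0.12 to 0.37 for DUSP1 and -0.16 to 0.31 for SGK1. All of these include 0, which does not show that the compounds act alike on them. Between the concentrations of TCIPP, 0 of 9 were called (0% of all genes) and 0 had an unadjusted p under 0.05 (10.8%), while EGR1 did not overlap (12.8%). Between those of TCEP, 0 were called (0%), EGR1 alone had an unadjusted p under 0.05 (7.16%) and did not overlap (15.5%). DESeq2 also called 0 in both steps (1.51% of genes for TCIPP, 0.176% for TCEP), with no adjusted p for EGR1, FOS and IER2 in the TCIPP step or for FOS in the TCEP step, and limma-voom called 0. Averaged over the compounds the concentration step called 0 (EGR1 by DESeq2, with 3.18% of genes, and 0 by limma-voom) and EGR1 had an unadjusted p under 0.05 (16.3% of all genes). The difference between the steps gave 0 calls by each tool and 0 genes at an unadjusted p under 0.05 (1.66% of all genes).

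**Figure D4:**
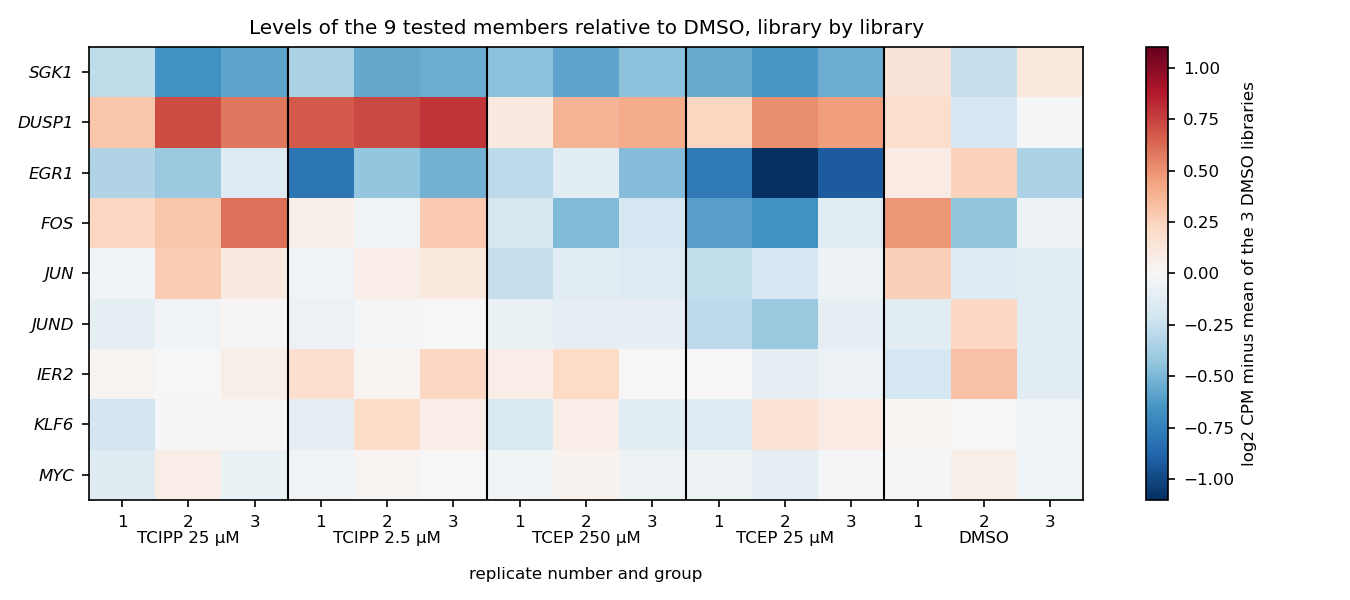
Log2 CPM of each of the 9 genes tested in each of the 15 libraries minus the mean log2 CPM of that gene in DMSO, as a colour, with columns grouped by treatment and DMSO last. SGK1 is below the DMSO mean in all 12 treated libraries and DUSP1 is above it in all 12.

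Intron reads, a readout of unspliced RNA separate from the exon counts, were too few for most members, since JUN, JUND and JUNB have none and FOS, EGR1 and SGK1 had 6, 15 and 22 in all. Of the rest, DUSP1, IER2, KLF6 and MYC were tested among 10490 genes, and edgeR called 0 of 4 in every comparison, with at most 0.0477% of all genes called in any. DUSP1 and IER2 overlap other genes, RP11-779O18.3 and CTC-250I14.6, and intron reads made 17.0% of the gene reads of IER2. Whether the intron reads of DUSP1 and IER2 are their own unspliced RNA was not tested. At an unadjusted p under 0.05 stood DUSP1 with TCEP at 25 µM over DMSO, at 0.91 on the log2 scale (adjusted p = 0.486), and MYC for TCIPP at 25 µM over 2.5 µM, at -0.53 (adjusted p = 0.493), and over TCEP at 25 µM, at -0.45 (adjusted p = 0.433). The share of the 10490 genes at that unadjusted level was not counted, so these are given as values only. For MYC exon reads the log2 fold changes in its 2 comparisons were -0.052 ± 0.065 and 0.0062 ± 0.065.

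Other genes of the pathway were looked up in 10 lists that hold 195 genes, of which 171 were tested. None of the 171 was called by edgeR against DMSO with any treatment. The counts that follow are at an unadjusted p under 0.05 over DMSO. Their order is TCIPP 25 µM, TCIPP 2.5 µM, TCEP 250 µM and TCEP 25 µM. In that order 6.36%, 13.9%, 5.2% and 15.2% of all genes stood at that level, higher and lower together. The median log2 fold change of all genes lay between -0.0040 and 0.0017 in these comparisons.

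Among 13 AP-1 partners and related bZIP genes, 10 were tested. They counted 1 higher and 0 lower, 1 higher and 0 lower, 1 higher and 1 lower, then 1 higher and 2 lower, with medians of 0.083, 0.027, -0.056 and 0.0058. JDP2, a repressor that dimerises with JUN, averaged 16.6 ± 1.96 and 12.7 ± 0.494 CPM with TCIPP at 25 and 2.5 µM, 16.3 ± 0.981 and 13.7 ± 0.803 CPM with TCEP at 250 and 25 µM and 11.2 ± 1.08 CPM with DMSO (edgeR 5-group adjusted p = 0.0922). FOSL2, a FOS relative, had adjusted p = 0.204 and MAFK, with 38.1% unique reads, 0.360 in the same edgeR test. In the 24 genes of the EGR, NR4A and KLF families and other early factors, 17 tested, the counts were 1 higher and 0 lower, 2 higher and 0 lower, 0 higher and 1 lower, then 0 higher and 1 lower, with medians of 0.023, 0.041, -0.048 and -0.0079. NR4A1, an orphan nuclear receptor induced like EGR1, averaged 18.4 ± 4.56 and 17.1 ± 3.10 CPM with TCIPP at 25 and 2.5 µM, 13.9 ± 3.82 and 11.8 ± 1.87 CPM with TCEP at 250 and 25 µM and 17.1 ± 0.248 CPM with DMSO, and its log2 fold change at the matched 25 µM was 0.64 (edgeR adjusted p = 0.115). BHLHE40 and KLF10 had 5-group adjusted p of 0.268 and 0.303.

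Of 38 other early response genes, 32 were tested, with 2 higher and 2 lower, 9 higher and 2 lower, 0 higher and 3 lower, then 6 higher and 3 lower, and medians of -0.0053, 0.053, 0.020 and 0.026. PIM1, a survival kinase, averaged 191 ± 19.1 and 235 ± 24.6 CPM with TCIPP at 25 and 2.5 µM, 201 ± 26.3 and 216 ± 21.1 CPM with TCEP at 250 and 25 µM and 177 ± 10.9 CPM with DMSO. IER5 averaged 10.3 ± 1.92, 8.77 ± 2.00, 9.60 ± 1.75 and 7.96 ± 1.21 CPM in the same treatments and 13.2 ± 0.468 CPM with DMSO, lower in all 4, as SGK1 was, and THBS1, a secreted matrix protein, had a 5-group edgeR adjusted p of 0.192. The MAP kinase phosphatases and feedback inhibitors, which act beside DUSP1, had 16 of 18 tested, with 1 higher and 0 lower, 3 higher and 0 lower, 0 higher and 0 lower, then 1 higher and 2 lower, and medians of 0.082, 0.059, -0.0044 and -0.049. SPRY4, an inhibitor of receptor signalling, was 0.32 higher on the log2 scale with TCIPP than with TCEP at 25 µM (edgeR adjusted p = 0.0822). For DUSP8 and SPRED2 the 5-group adjusted p was 0.268 and 0.273.

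Upstream of the members, 30 of 31 growth factor receptors and ERK cascade genes were tested, with 2 higher and 0 lower, 2 higher and 1 lower, 0 higher and 2 lower, then 1 higher and 5 lower, and medians of 0.025, -0.028, -0.041 and -0.053. FGFR1, a fibroblast growth factor receptor, averaged 102 ± 24.6 and 69.5 ± 14.6 CPM with TCIPP at 25 and 2.5 µM, 91.1 ± 12.8 and 65.4 ± 15.7 CPM with TCEP at 250 and 25 µM and 96.9 ± 8.09 CPM with DMSO. It thus had lower means at the lower concentrations, as EGR1 had (log2 difference of higher over lower concentrations 0.50, edgeR adjusted p = 0.0603), and PDGFRB had a 5-group adjusted p of 0.291. Serum response factor and its partners, all 10 tested, had 0 higher and 0 lower, 0 higher and 0 lower, 0 higher and 0 lower, then 0 higher and 1 lower, with medians of -0.00100, -0.012, -0.066 and -0.066. SRF itself averaged 71.7 ± 2.62 and 77.7 ± 5.07 CPM with TCIPP at 25 and 2.5 µM, 68.9 ± 2.79 and 66.8 ± 3.14 CPM with TCEP at 250 and 25 µM and 76.6 ± 7.16 CPM with DMSO. The coactivators CREBBP and EP300 had 5-group edgeR adjusted p of 0.155 and 0.294. The 10 decay factors, which clear early mRNAs, counted 0 higher and 0 lower, 2 higher and 0 lower, 0 higher and 0 lower, then 0 higher and 0 lower, with medians of 0.10, 0.0061, 0.0027 and 0.0039, and ZFP36L2 (11.9% unique reads), CNOT1 and ELAVL1 had 5-group adjusted p of 0.299, 0.386 and 0.402.

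Around MYC, 13 of 15 network partners were tested, with 1 higher and 0 lower, 1 higher and 2 lower, 1 higher and 0 lower, then 0 higher and 3 lower, and medians of 0.055, -0.046, 0.014 and 0.0099. MXD4, which competes with MYC for MAX, averaged 52.0 ± 9.58 and 42.6 ± 7.28 CPM with TCIPP at 25 and 2.5 µM, 48.5 ± 10.1 and 41.5 ± 6.64 CPM with TCEP at 250 and 25 µM and 59.0 ± 6.56 CPM with DMSO, and MXD1 and MLXIPL had 5-group edgeR adjusted p of 0.312 and 0.312. All 18 MYC-driven nucleolar and growth genes were tested, with 0 higher and 1 lower, 1 higher and 1 lower, 0 higher and 0 lower, then 1 higher and 1 lower, and medians of 0.0092, 0.013, 0.071 and 0.018. GNL3, NOP56 and SRM had 5-group adjusted p of 0.262, 0.285 and 0.363.

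The list set beside SGK1 holds 19 genes, either of glucocorticoid or osmotic responses or tied to SGK1 itself, and 16 were tested. They counted 1 higher and 1 lower, 4 higher and 3 lower, 2 higher and 3 lower, then 5 higher and 6 lower. Their medians were 0.031, -0.053, -0.093 and -0.15. AKR1B1, the aldose reductase that makes sorbitol under osmotic stress, averaged 66.7 ± 15.3 and 55.3 ± 5.75 CPM with TCIPP at 25 and 2.5 µM, 60.1 ± 9.29 and 49.9 ± 4.42 CPM with TCEP at 250 and 25 µM and 76.8 ± 8.64 CPM with DMSO (5-group edgeR adjusted p = 0.155). SGK2, a relative of SGK1, averaged 14.6 ± 3.10 and 10.1 ± 2.20 CPM with TCIPP at 25 and 2.5 µM, 14.0 ± 2.87 and 9.03 ± 1.24 CPM with TCEP at 250 and 25 µM and 15.4 ± 2.64 CPM with DMSO. It was thus lowest at the lower concentrations, while the SGK1 means were 64.7 and 65.4 CPM with TCIPP and 64.9 and 61.2 CPM with TCEP. NDRG1, a substrate of SGK1, averaged 555 ± 78.2 and 729 ± 103 CPM with TCIPP at 25 and 2.5 µM, 522 ± 66.2 and 692 ± 66.6 CPM with TCEP at 250 and 25 µM and 544 ± 26.7 CPM with DMSO. Its means at the higher concentrations thus lay near that of DMSO, and those at the lower concentrations above it. NDRG1 was lower at the higher concentrations than at the lower, with a log2 difference of -0.42 (edgeR adjusted p = 0.0339), and was the 1 gene of the 10 lists called in that comparison, where 1.09% of all genes were.

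For each member the genes with the most similar log2 CPM over the 15 libraries were looked up among 10104 genes with a mean of at least 5 CPM. The points share 3 DMSO cultures, the replicate numbers and the depth of the libraries, so Pearson's r is a description. FOS was most like EP300 (r = 0.882), NUP98 and INO80, and among the genes near JUN were NCOR1 (r = 0.862) and KMT2C (r = 0.818). JUND was most like SLC16A13 (r = 0.893), SSBP4 and ATN1, and EGR1 most like HIP1R (r = 0.826), the mitochondrial gene MT-CO2 (r = 0.823) and PPP1R10. KLF6 stood nearest to CTNND1 (r = 0.911), AAED1 and KMT2E, MYC to PTGFRN (r = 0.851), METTL16 and ADIPOR1, and IER2 to ERCC1 (r = 0.848), AREL1 and BMP1. DUSP1 was most like PPP1R15A (r = 0.883), AFAP1 and SERTAD2, and SGK1 most like TNFRSF19 and BAMBI (r = 0.904 each) and CORO1C (r = 0.898). Among the members themselves, FOS and JUN had the highest r, 0.810, then JUND and EGR1 with 0.687. DUSP1 and SGK1 had the lowest, -0.58, and EGR1 and DUSP1 followed with -0.49.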

How the data were processed

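RNA of HepG2 cultures was sequenced as paired 50 bp reads from stranded poly-A libraries, per the labels' protocols, and mapped and annotated with CLC Genomics Workbench on hg19, per the series' design text and the submitters' processing notes. The deposited tables hold, per the file headers, whole-number read counts per gene (total and unique exon reads, intron reads and gene reads), RPKM values and, as a signal on a linear scale, quantile-normalized expression values made by the authors. The version of the software, and whether the strand was used in counting, are not given in the sources used here. Of the gene names, 27 appeared as dates and were looked up by identifier, and gene starts were moved to a 1-based scale.

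CPM are total exon reads scaled to the exon reads of the library. Total exon read counts of all 15 libraries entered 1 quasi-likelihood fit of edgeR 4.0.16 in R 4.3.3, after its own low-count filter and TMM scaling, with 10 contrasts and a test over the 5 groups. Calls are at a Benjamini-Hochberg adjusted p under 0.05, over the 12567 genes tested. Standard errors are the absolute log2 fold change over the square root of F. The fit was also run on simulated counts, and how often it recovered small changes is not given here. Alternatives used limma 3.58.1, DESeq2 1.42.0, other scaling, filters and read classes, the authors' signal (log2 of the value plus 1, within the TCEP set and DMSO, which were normalized together), a replicate block and leaving out each library.

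Samples with the same replicate number deviated together between treatments (r from 0.13 to 0.337, above 0.1 in 18 of 18 pairs). They did so less with DMSO (0.0164 to 0.158, above 0.1 in 3 of 12), though these ranges overlap. The numbers were taken to pair the treated cultures only. Whether they also pair them with DMSO was not tested beyond these r, which were low but all positive. All members are named, with tests for each at an unadjusted p under 0.05. Of each list the 3 genes with the smallest 5-group p are named, and for likeness the 3 genes with the highest r. The members and lists were chosen with earlier results of these data known. Promoter sequences are from RefSeq (GRCh38.p14). Some genes that the naming rule selects are not reported here.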

Additional observations from a re-analysis of the deposited data

How the results depend on the processing

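The 22 member fold changes with an unadjusted p under 0.05 kept their sign in all 348 alternative fits that gave an adjusted p. In 283 they stayed on their side of the threshold, in 60 they newly passed it, and in 5, all of them DUSP1 with TCIPP at 2.5 µM, they no longer did. DESeq2 gave no adjusted p in 3 further fits, for EGR1 with TCEP at either concentration and FOS with TCEP at 25 µM over DMSO. The number of the 9 genes called was 1 with TCIPP at 2.5 µM over DMSO and 0 elsewhere. DESeq2 called 2 with TCIPP at 25 µM, 3 with TCIPP at 2.5 µM, 1 with TCEP at 250 µM, 2 with TCEP at 25 µM, 2 between the compounds at 25 µM, 1 for higher over lower concentrations, 3 over all treatments and 4 in the 5-group test. Of the genes to which it gave an adjusted p, 0.392%, 2.09%, 0.421%, 2.7%, 3.46%, 3.18%, 1.01% and 3.6% were called. Without a filter on low counts the numbers in that order were 2, 3, 1, 3, 2, 1, 3 and 5, with 1 between the concentrations of TCEP, and the shares of all genes 0.364%, 2.51%, 0.227%, 2.81%, 3.44%, 3.31%, 1.61% and 4.5%, with 0.732% between the concentrations of TCEP. On unique exon reads 2 were called with TCIPP at 2.5 µM, 1 with TCEP at 25 µM, 1 for the concentrations, 1 over all treatments and 2 in the 5-group test, with 1.03%, 0.017%, 1.79%, 0.11% and 0.339% of all genes. Limma-voom called 2 with TCIPP at 2.5 µM (0.828% of all genes), total gene reads 0 there (0%), and a fit of only the groups compared 2 with TCEP at 25 µM (1.1%). The cause of these shifts was not tested.

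With a replicate block the counts were 2 (DUSP1 and SGK1) with TCIPP at 25 µM, 3 (with EGR1) at 2.5 µM, 1 (SGK1) with TCEP at 250 µM, 3 at 25 µM, 2 (FOS and EGR1) between the compounds at 25 µM, 1 (EGR1) for the concentrations, 3 over all treatments and 4 (with FOS) in the 5-group test. The same fit called 0.374%, 7.49%, 0.271%, 8.25%, 8.75%, 8.78%, 4.52% and 8.81% of all genes in that order. Whether the numbers pair the treated cultures with DMSO was not tested beyond the r of 0.0164 to 0.158 given above. For comparisons with DMSO this block is therefore only another setting.

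Leaving out 1 library gave 0 to 1 calls with TCIPP at 25 µM, 0 to 2 at 2.5 µM, 0 to 0 with TCEP at 250 µM, 0 to 2 at 25 µM, 0 to 1 for the concentrations, 0 to 2 over all treatments and 0 to 1 in the 5-group test. Over all genes the settings called 0 to 80 with TCIPP at 25 µM (main 1), 0 to 941 at 2.5 µM (12), 0 to 50 with TCEP at 250 µM (0), 0 to 1037 at 25 µM (0), 0 to 484 between the concentrations of TCIPP (0), 0 to 185 between those of TCEP (0), 0 to 1100 between the compounds (5), 2 to 1103 for the concentrations (137), 0 to 568 over all treatments (0), 0 to 8 for the difference of the steps (0) and 0 to 1107 in the 5-group test (12). The sum of DUSP1 exon and antisense intron reads was chosen after seeing the data. FOS, at 53 to 366 reads, has the widest intervals of the 9 genes, up to 0.42 to either side of its log2 fold changes over DMSO, and 3 replicates limit every comparison.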
